A study of Homo sapiens with 6 samples.

Results

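The poly(C)-binding protein (PCBP) family was examined in U87MG, an established human glioblastoma cell line, by RNA-seq of total RNA. The 4 members, PCBP1 (Entrez gene 5093), PCBP2 (5094), PCBP3 (54039) and PCBP4 (57060), were found by symbol in the deposited comparison table, which lists 27259 genes, and by gene ID in the 6 library tables. The family was selected on the expression values of the 2 groups of libraries, in which the PCBP3 difference was already known, so its levels and fold changes in that comparison are given as a description, with no test. U87MG-control cells had received a control lentivirus and U87MG-LMO2 cells a lentivirus that carries LMO2, a LIM-domain adaptor protein, each for 24 h, with 3 libraries per group. The study's methods name a pLL-CMV-puro vector for LMO2, in which a viral CMV promoter drives the gene, so the level of LMO2 is not that of a natural locus, and all cells come from 1 cell line. The labels number the replicates and do not say whether they came from separate cultures, so an error or a p-value measures the spread between these libraries, which may be technical.

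PCBP proteins bind cytosine-rich stretches of single-stranded RNA and DNA through KH domains, a fold that grips a short run of bases. PCBP1 and PCBP2 are abundant in most human cells, where they take part in splicing, in the stability and translation of mRNAs and in the delivery of iron to enzymes and ferritin. PCBP1 is an intronless copy of PCBP2 that arose from its mRNA. PCBP4 is known as a target of p53, and PCBP3 is the least studied member.

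Summed expected counts (estimated reads per gene) were 11428432 to 13537284 per control library and 14630627 to 17892955 per LMO2 library, and the 2 ranges do not overlap. The label was checked on LMO2 (4005), which had 5 to 11 counts in the control libraries and 4503 to 14570 in the U87MG-LMO2 libraries. For 131 genes the U87MG-LMO2 mean FPKM did not match the deposited group mean. These were left out, and none of them was a member. Of the 131, 126 had no line in U87MG-LMO2 replicate 3, whose table held 3 damaged lines. The same library had the lowest TMM factor (a scaling for library composition), 0.929 against 1.008 to 1.021 in the other 5. The mesenchymal markers VIM, CD44, FN1, CDH2 and COL1A1 were abundant, at a summed 15850 to 16440 CPM (counts scaled to a common library size, by library totals alone for the marker sums) in U87MG-control and 18360 to 23150 in U87MG-LMO2. Of the glial markers, OLIG2 passed the filter on low counts, at 0.409 to 1.06 CPM, GFAP had 0 counts in all 6 libraries, and SOX2, S100B and AQP4 had 0 to 4. Of the blood markers, PTPRC had 5.52 to 9.98 counts per library and HBB had 0, and the endothelial list summed to 6.03 to 7.75 CPM. The neuronal list summed to 49.0 to 50.7 CPM in U87MG-control and 33.3 to 46.0 in U87MG-LMO2. In such bulk RNA, a change in the share of cells that express a gene and a change in RNA per cell cannot be told apart.

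Because the members are related, the sequences that a read would have to tell apart are shown first. The 60 coding bases in which PCBP3 is most like PCBP2 encode the start of the KH domain nearest to the N-terminus, with its glycine-rich loop, and are given 5′ to 3′ with their counterparts, in lower case where a base equals that of PCBP3 and in capitals where it differs.
PCBP3: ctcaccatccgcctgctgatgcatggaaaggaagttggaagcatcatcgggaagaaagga
PCBP2: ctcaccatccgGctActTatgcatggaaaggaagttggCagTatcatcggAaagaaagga
PCBP1: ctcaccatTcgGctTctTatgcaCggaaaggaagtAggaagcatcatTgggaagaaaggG
PCBP4: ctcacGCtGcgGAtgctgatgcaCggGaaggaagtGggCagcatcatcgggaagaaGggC

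In the GENCODE v29 annotation (GRCh38), the PCBP3 stretch lies on the plus strand at chr21:45896333-45900596 and spans exons 4 to 6 of the transcript. The PCBP2 stretch is at chr12:53454840-53455466 on the plus strand, in exons 2 to 4. The PCBP4 stretch is at chr3:51960893-51961189 on the minus strand, in exons 2 to 4. The PCBP1 stretch is a single block, chr2:70087783-70087842 on the plus strand, in the only exon of that gene. Even here PCBP2 differed from PCBP3 at 6 of 60 bases, PCBP1 at 8 and PCBP4 at 11.

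Over the whole coding sequence, PCBP1 and PCBP2 were the closest pair, with 83.8% identity over 1063 aligned bases. PCBP3 had 74.9% identity with PCBP2, 74.0% with PCBP1 and 71.5% with PCBP4. The longest run of bases that PCBP3 shared exactly with another member was 20, with PCBP2, and the longest in the family was 33, between PCBP1 and PCBP2. None of the 2244 different 50-base stretches of the 2 PCBP3 transcripts occurred, on either strand, in a transcript of any other gene in GENCODE v29. No member shared a 50-base stretch with another member either, but 46.9% of those of PCBP1 and 71.6% of those of PCBP2 also lay in transcripts of other genes. For PCBP1 these were nearly all in its antisense gene PCBP1-AS1 (796 of 1701 stretches), and for PCBP2 most were in the overlapping gene MAP3K12 (1444 of 3310). Whether strand was used in counting is not given in the sources used here, so reads of PCBP1 and PCBP2 cannot be told apart from those of overlapping genes in these stretches. For PCBP4, 8.16% of 2402 stretches were shared, from the 4 of its 11 listed transcripts that were matched. The expected counts of PCBP1, PCBP3 and PCBP4 were whole numbers in 6 of 6 libraries (within 0.005), whereas those of PCBP2 were fractional in all 6.

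The promoters of PCBP1 and PCBP2 also share sequence, which is shown because these are the most abundant members and the closest pair in coding sequence. The best local alignment of their RefSeq promoter windows (GRCh38.p14) is given with capitals where the genes differ or where the other has a gap.
PCBP1: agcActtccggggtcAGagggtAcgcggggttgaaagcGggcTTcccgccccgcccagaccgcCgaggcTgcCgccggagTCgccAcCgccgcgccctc
PCBP2: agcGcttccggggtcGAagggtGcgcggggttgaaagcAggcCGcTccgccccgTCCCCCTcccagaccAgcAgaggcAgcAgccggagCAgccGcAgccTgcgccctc

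The stretch of PCBP1 is chr2:70087421-70087519 and that of PCBP2 chr12:53452041-53452149, both on the plus strand and across the start site. They were identical at 85 of 109 aligned positions (78.0%), 10 of which were gaps. Both hold CTTCCGG, the reverse complement of CCGGAAG, a motif of ETS factors that was searched on both strands and occurred in 10.3% of 35116 promoter windows. None of the 3 PCBP4 windows held it, and no PCBP3 window was analysed here.

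PCBP3 was the member that differed most between the groups. Its level was 4.11, 3.45 and 3.39 FPKM (fragments scaled by transcript length and library size, for levels that can be compared between genes) in U87MG-control replicates 1 to 3, and 17.95, 17.18 and 19.52 FPKM in U87MG-LMO2 replicates 1 to 3. The groups did not overlap, and the lowest U87MG-LMO2 library was 4.18 times the highest control library. The values rested on 88 to 93 counts per control library and 498 to 695 counts per U87MG-LMO2 library. The normalised read count was 7.17 ± 0.778 CPM (SD, n = 3) in U87MG-control and 37.0 ± 4.29 CPM (SD, n = 3) in U87MG-LMO2. On the log2 scale the fold change was 2.37 (SE 0.15), a 5.16-fold difference with a 95% interval of 4.11 to 6.48. By size this was rank 35 of the 16092 genes tested.

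PCBP1 showed no difference beyond the spread. It had 217.7, 235.2 and 226.8 FPKM in U87MG-control and 206.0, 210.0 and 256.7 FPKM in U87MG-LMO2. The groups overlapped, since replicate 3 of U87MG-LMO2 was the highest library of all and the other 2 were the lowest. The log2 fold change was 0.035 (SE 0.13), with a 95% interval from -0.26 to 0.33.

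PCBP2 was the most abundant member in all 6 libraries. It had 276.9, 289.9 and 288.5 FPKM in U87MG-control and 267.6, 272.4 and 289.6 FPKM in U87MG-LMO2. These groups overlapped too, with replicate 3 again the highest U87MG-LMO2 library. The log2 fold change was 0.0036 (SE 0.10), with a 95% interval from -0.22 to 0.23.

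PCBP4 was slightly higher on average in U87MG-LMO2 in both CPM and FPKM, but the groups were apart on only 1 of these scales. In CPM it was 118.4, 115.2 and 113.4 in U87MG-control and 134.0, 120.0 and 144.1 in U87MG-LMO2, and the groups did not overlap. In FPKM it was 57.26, 54.39 and 53.63 against 63.83, 56.49 and 62.38, and U87MG-LMO2 replicate 2 lay below control replicate 1. The log2 fold change was 0.20 (SE 0.10), with a 95% interval from -0.030 to 0.43. Transcripts of PCBP4 are rich in G and C (62.1%, against a median of 49.8% over tested genes), and the log2 fold change was -0.021 once the GC-content trend of each library was removed. For PCBP3, with 55.7% G and C, it was then 2.27.

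**Figure D1:**
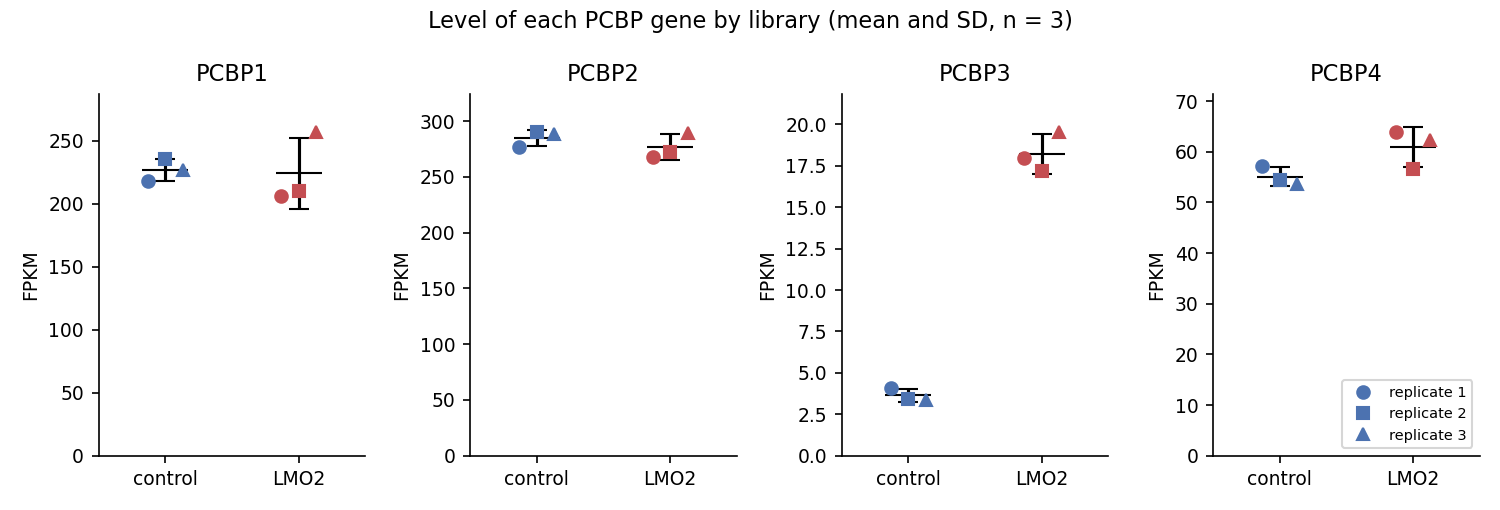
FPKM of each PCBP gene (y axis, from 0) in the 3 U87MG-control libraries (blue) and the 3 U87MG-LMO2 libraries (red), with symbols for replicate numbers and black marks for the mean and SD (n = 3). PCBP3 lies at 3.39 to 4.11 FPKM in control and 17.18 to 19.52 FPKM in LMO2, while the groups overlap for the other 3 members.

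Of the 4 members, PCBP3 alone was called at an adjusted p under 0.05 in the edgeR fit over all genes, where 7.48% of 16092 genes were called in either direction, 4.72% as higher and 2.75% as lower in U87MG-LMO2. On the CPM scale the groups did not overlap for PCBP3 and PCBP4, both higher in U87MG-LMO2. Over all genes tested they did not overlap for 34.1%, with 17.5% higher and 16.6% lower. PCBP3 was also called at over 4-fold higher, as were 0.329% of genes. Nothing is read from these counts, because the same comparison was in view when the family was chosen. The standard deviation of log2 CPM within groups was 0.18 for PCBP1, 0.097 for PCBP2, 0.16 for PCBP3 and 0.097 for PCBP4, against a median of 0.203 over all genes tested.

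The order of the levels per length was the same in every library, with PCBP2 first, then PCBP1, PCBP4 and PCBP3. PCBP2 and PCBP1 lay closest, with a PCBP1 to PCBP2 ratio of 0.795 ± 0.0144 in U87MG-control and 0.809 ± 0.0670 in U87MG-LMO2 (SD, n = 3). The distance from PCBP3 to its next neighbour narrowed from 15.2 ± 1.08 times more PCBP4 in U87MG-control to 3.35 ± 0.187 times in U87MG-LMO2 (SD, n = 3).

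The share of PCBP3 in the summed FPKM of the family was 0.739%, 0.592% and 0.592% in U87MG-control replicates 1 to 3. In U87MG-LMO2 replicates 1 to 3 it was 3.23%, 3.09% and 3.11%. The means were 0.641 ± 0.0850% and 3.14 ± 0.0775% (SD, n = 3), a difference of 2.50 percentage points, and the groups did not overlap. PCBP3 thus stayed the smallest part of the family in all libraries. The share of PCBP2 was 50.0 ± 0.366% in U87MG-control and 47.8 ± 1.49% in U87MG-LMO2, without overlap, and those of PCBP1 and PCBP4 overlapped.

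The family total did not differ beyond the spread, at 570.4 ± 13.6 FPKM in U87MG-control and 579.9 ± 41.8 FPKM in U87MG-LMO2 (SD, n = 3), a log2 ratio of 0.024. The mean of PCBP3 was 14.6 FPKM higher in U87MG-LMO2, that of PCBP4 5.81 FPKM higher, and the differences for PCBP1 and PCBP2 were -2.31 and -8.57 FPKM. Without PCBP3 the total was 566.8 ± 13.9 FPKM and 561.7 ± 40.7 FPKM. U87MG-LMO2 replicate 3 had the highest total, 628.2 FPKM, against 555.5 to 583.0 FPKM in the other 5 libraries.

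**Figure D2:**
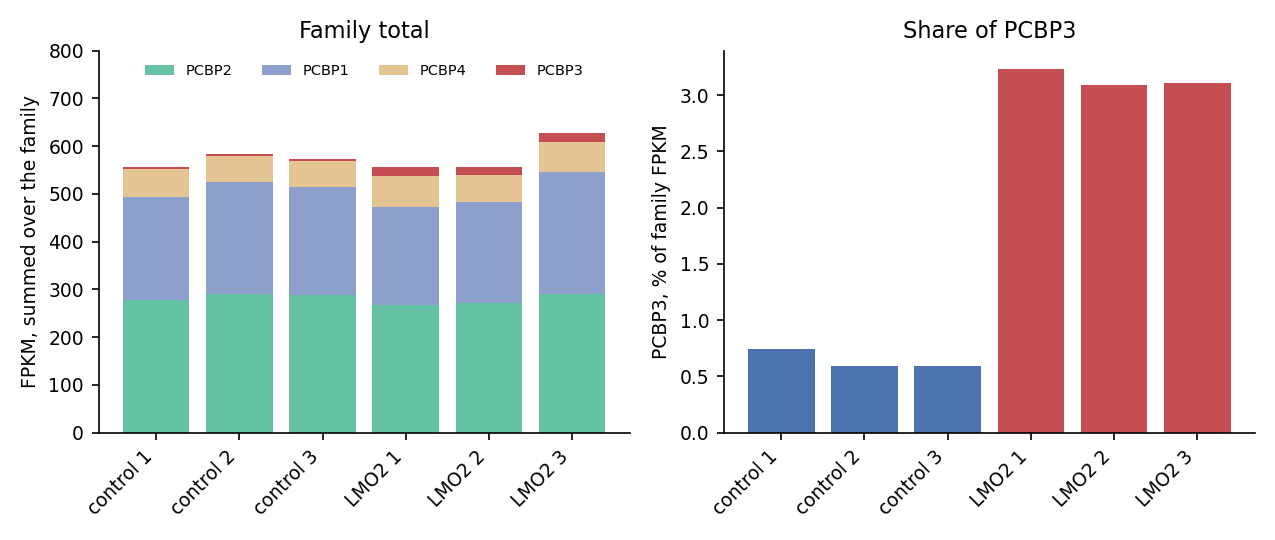
Left, FPKM summed over the family in each library, stacked by member; right, PCBP3 as a percentage of that sum, with control libraries in blue and LMO2 libraries in red. The totals lie between 555.5 and 628.2 FPKM with overlapping groups, while the PCBP3 share is 0.592% to 0.739% in control and 3.09% to 3.23% in LMO2.

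The transcript length that the authors assigned to a gene is an average over its transcripts weighted by their estimated abundance, so it moves when the mix of transcripts moves. The deposited length was not used to choose the family, whereas the implied length below is computed from the counts and FPKM that were, and is given as a description. With 3 against 3 libraries an exact permutation test cannot go below p = 0.1, so it cannot show a difference at 0.05, and a high p does not show that lengths were equal. For PCBP3, with 2 transcripts listed, the deposited length was 1983.6 ± 4.48 bases in U87MG-control and 1982.8 ± 1.41 bases in U87MG-LMO2 (SD, n = 3; exact permutation test, 2-sided, p = 1.0). The length implied by count, FPKM and library total differed by 0.27 bases. For PCBP4, control replicate 1 stood at 2082.6 bases and the other libraries at up to 2136.6 bases. The mean deposited length was 2116.6 ± 29.6 bases in U87MG-control and 2129.7 ± 3.55 bases in U87MG-LMO2 (SD, n = 3; exact permutation test, 2-sided, p = 0.90). For PCBP2 the deposited length was 3154.8 ± 0.72 bases in U87MG-control and 3159.7 ± 1.94 bases in U87MG-LMO2 (SD, n = 3), 4.93 bases longer and without overlap (exact permutation test, 2-sided, p = 0.10, the smallest possible). Its implied length was 5.67 bases longer in U87MG-LMO2. PCBP1 has 1 transcript, with a deposited length of 1772.0 bases in every library, while its implied length ranged from 1768.2 to 1773.7 bases. Computed with another library total, the implied PCBP2 difference was 2.0 bases.

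LMO2 itself varied widely within its group, at 333.0, 307.0 and 877.9 CPM in U87MG-LMO2 replicates 1 to 3. PCBP3 had 35.1, 34.0 and 41.9 CPM in the same libraries. The library with the most LMO2 thus also had the most PCBP3 in CPM, but the range of PCBP3 was far narrower. PCBP1 and PCBP2 were highest in that library as well, at 490.9 and 996.0 CPM, and a relation cannot be tested over 3 libraries.

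The fold change of PCBP3 depended little on the fit. Across the 14 other fits it ranged from 2.05, with limma on log2(FPKM + 1), a scale that understates changes of low genes, to 2.46, without U87MG-control replicate 1. The direction of PCBP1 and PCBP2 turned with the fit: without U87MG-LMO2 replicate 3 their log2 fold changes were -0.12 and -0.076.

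**Figure D3:**
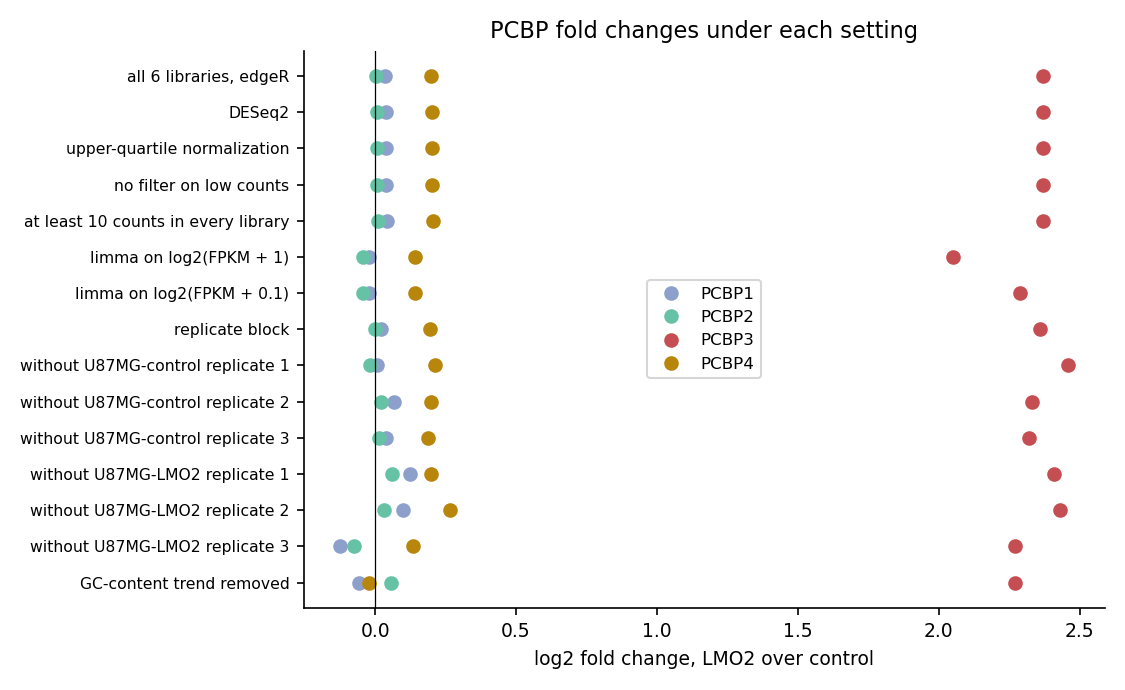
Log2 fold change of the 4 members (x axis, LMO2 over control) in the fit with all 6 libraries and in each of the 14 other fits (y axis). PCBP3 stays between 2.05 and 2.46, and the other members stay between -0.12 and 0.27.

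Genes beside the members on the chromosome were compared next, as the nearest tested gene on either side and any tested gene that overlaps. PCBP3 lies between the non-coding RNA genes LINC01694 and LOC101928796 among tested genes. LOC101928796 rose to 8.22 ± 1.49 CPM from 3.99 ± 0.648 CPM in U87MG-control (SD, n = 3; log2 fold change 1.05, SE 0.20, edgeR adjusted p 0.0229.) LINC01694 was at 0.918 ± 0.165 and 1.76 ± 0.380 CPM (SD, n = 3; log2 fold change 0.93, SE 0.29), and its edgeR adjusted p of 0.0881 did not pass. LOC101928796 lost its call when any of the 3 control libraries was left out (adjusted p from 0.0648 to 0.107), without U87MG-LMO2 replicate 1 (0.0661) and with the replicate number as a block (0.0535). PCBP3-AS1, named as antisense to PCBP3, had 3, 3 and 4 counts in U87MG-control and 8, 7 and 7 counts in U87MG-LMO2 and did not pass the filter on low counts.

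None of the 10 tested neighbours of the other members was called by edgeR at an adjusted p under 0.05. At PCBP1 these were MXD1 (log2 fold change 0.0082), LINC01816 (-0.46) and PCBP1-AS1 (0.18). At PCBP2 they were PRR13 (-0.026), TARBP2 (0.10), PCBP2-OT1 (0.42) and MAP3K12 (0.028). At PCBP4 they were PARP3 (-0.045), GPR62 (-0.078) and ABHD14B, which had the lowest adjusted p of the 10, 0.0969, at a log2 fold change of 0.44 (SE 0.14). ABHD14B was also the only one of the 10 at an unadjusted p under 0.05, a threshold at which the share of all genes was not computed.

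**Figure D4:**
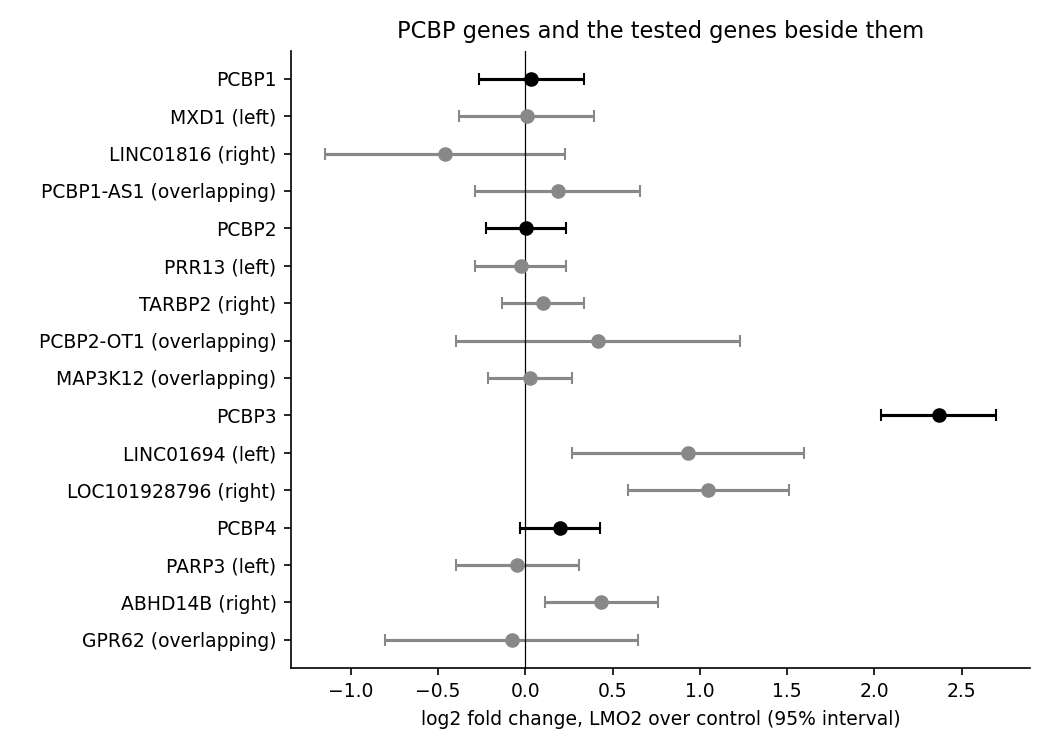
Log2 fold change (x axis, LMO2 over control) with its 95% interval for each PCBP gene (black) and for the tested genes beside or overlapping it (grey; left and right mean lower and higher coordinates). The intervals of PCBP3, LINC01694, LOC101928796 and ABHD14B lie above 0, and those of the other genes include 0.

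Other RNA-binding proteins with KH domains were then examined, from a list of 32 genes. This list and the later ones were chosen with earlier results of these data known, so their called shares are a description. Of 29 tested, 0 were called higher and 2 were called lower (6.90%, against 7.48% of all genes tested), and the median log2 fold change was -0.21 against -0.011 over all genes. FXR1, a relative of the fragile X protein FMR1, fell to 89.2 ± 7.92 CPM from 137.8 ± 9.29 CPM in U87MG-control (SD, n = 3; log2 fold change -0.63, SE 0.11, edgeR adjusted p 0.0146.) IGF2BP3, which binds mRNAs of growth genes, fell to 47.7 ± 4.63 CPM from 66.9 ± 7.15 CPM in U87MG-control (SD, n = 3; log2 fold change -0.49, SE 0.12, edgeR adjusted p 0.0444.) FXR1 lost the call in 4 of 14 other fits, those without a control library or without U87MG-LMO2 replicate 1 (adjusted p from 0.0544 to 0.0819). IGF2BP3 lost it in 9 of 14, with adjusted p values up to 0.141. DESeq2 called 3 genes of the list, all lower, with IGF2BP2 as the third. U87MG-LMO2 replicate 3 stood apart in some list genes, in either direction. In U87MG-LMO2 replicates 1 to 3, FUBP1 had 97.48, 93.25 and 64.23 CPM, and IGF2BP2 had 119.1, 94.41 and 157.6 CPM. FUBP1 and IGF2BP2 are named outside the rule, after their values were seen.

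HNRNPK, which encodes a further poly(C)-binding protein and is the nearest relative of the family, did not pass. It had 485.2, 496.4 and 496.6 CPM in U87MG-control and 434.2, 443.1 and 352.8 CPM in U87MG-LMO2, and the groups did not overlap, with U87MG-LMO2 replicate 3 the lowest. Its log2 fold change was -0.27 (SE 0.11) and its edgeR adjusted p 0.173, and none of the 14 other fits called it (adjusted p 0.135 to 0.539). With the GC-content trend removed the log2 fold change was -0.096, and leaving out U87MG-LMO2 replicate 3 gave -0.17.

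Of the 22 other heterogeneous nuclear ribonucleoproteins, all tested, edgeR called 0 (against 7.48% of all genes tested), with 4 at an unadjusted p under 0.05. The share of all genes at that unadjusted threshold was not computed, so nothing is read from the 4. DESeq2 called 2 of the 22, HNRNPA0 as higher and HNRNPH3 as lower (named, like HNRNPM, after their values were seen), and limma on log2(FPKM + 1) called 0. Over all genes DESeq2 called about 1010 higher and 691 lower. The median log2 fold change of the 22 was -0.12, from -0.41 for HNRNPM to 0.32 for HNRNPA0. U87MG-LMO2 replicate 3 stood apart in several of them: HNRNPA2B1 had 588.4, 564.7 and 358.1 CPM in U87MG-LMO2 replicates 1 to 3, and the list summed to 4308 to 6137 CPM in U87MG-LMO2 against 6000.0 to 6322 CPM in U87MG-control. Over both groups the most abundant were HNRNPUL1, at 601.9 ± 40.2 and 561.1 ± 44.0 CPM, and PTBP1, at 538.0 ± 27.8 and 578.7 ± 63.6 CPM in U87MG-control and U87MG-LMO2 (SD, n = 3). HNRNPA2B1, at 603.7 ± 38.6 and 503.7 ± 127 CPM, was the highest in U87MG-control only. It is named outside the rule, after its values were seen. Many genes of this family have processed copies that can share reads, so these values are uncertain.

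Iron handling genes formed the third list, because PCBP1 and PCBP2 carry iron to ferritin and to iron-dependent hydroxylases. Of 14 tested, 1 was called higher and 1 lower (14.3%, against 7.48% of all genes tested), with a median log2 fold change of 0.013. FTL, the ferritin light chain, rose to 2550.0 ± 163 CPM from 1864.0 ± 199 CPM in U87MG-control (SD, n = 3; log2 fold change 0.45, SE 0.11, edgeR adjusted p 0.0443.) P4HA1, a subunit of the collagen prolyl hydroxylase, fell to 19.7 ± 2.04 CPM from 39.2 ± 13.5 CPM in U87MG-control (SD, n = 3; log2 fold change -0.99, SE 0.22, edgeR adjusted p 0.0359.) Neither call was stable: FTL lost it in 9 of 14 other fits and P4HA1 in 7 of 14, each with the replicate block and after the GC-content correction (adjusted p 0.0952 and 0.102 for FTL, 0.0603 and 0.0838 for P4HA1). FTL also has processed copies that can share reads. HMOX1 had the highest log2 fold change of the list, 0.99 (SE 0.27, edgeR adjusted p 0.0644). It was at 192.4 ± 47.8 and 382.1 ± 141 CPM in U87MG-control and U87MG-LMO2 (SD, n = 3). DESeq2 called HMOX1 as higher, and this gene is named after its values were seen.

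The list of mRNAs known to be bound by a PCBP protein had 9 tested genes of 15, of which 1 was called (11.1%, against 7.48% of all genes tested), and their median log2 fold change was 0.11. COL1A1, the chain of type I collagen whose mRNA is stabilised by binding of PCBP proteins in other cells, rose to 1475.0 ± 44.1 CPM from 729.6 ± 50.2 CPM in U87MG-control (SD, n = 3; log2 fold change 1.02, SE 0.096, edgeR adjusted p 0.00238), and all 14 other fits called it (0.83 to 1.05). COL1A1 is also one of the mesenchymal markers, whose summed level was higher in U87MG-LMO2, and the part of such a shift in its value was not tested. All 5 of those markers had a log2 fold change above 0, but edgeR called COL1A1 alone. CDKN1A, which encodes the cell cycle inhibitor p21, had a log2 fold change of 0.20 (SE 0.099; edgeR adjusted p 0.249), and MYC had -0.024 (SE 0.15) and 0.934. Neither passed. COL3A1, at 1.08 ± 0.200 and 2.42 ± 0.844 CPM in U87MG-control and U87MG-LMO2 (SD, n = 3), had 1.15 (SE 0.33, edgeR adjusted p 0.0678). BAG1 had 0.63 (SE 0.21, edgeR adjusted p 0.104), and DESeq2 called BAG1 but not COL3A1. With COL1A1, 3 of the 9 tested genes had an unadjusted edgeR p under 0.05, all of them higher. The share of all genes at that unadjusted threshold was not computed, so nothing is read from this count. All but COL1A1 are named outside the rule, after their values were seen.

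The innate sensing proteins that PCBP1 or PCBP2 act on, and their ubiquitin ligases, had 4 tested genes of 5. None was called by edgeR (against 7.48% of all genes tested) or DESeq2. At an unadjusted p under 0.05, where the share of all genes was not computed, there was 1 gene. It was WWP2, a ubiquitin ligase, with a log2 fold change of 0.32 (SE 0.098; edgeR adjusted p 0.0836.) The most abundant were MAVS, the antiviral adaptor that PCBP2 helps to degrade, at 283.8 ± 16.8 and 285.9 ± 26.6 CPM, and WWP2, at 91.2 ± 4.32 and 113.9 ± 8.40 CPM in U87MG-control and U87MG-LMO2 (SD, n = 3).

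**Figure D5:**
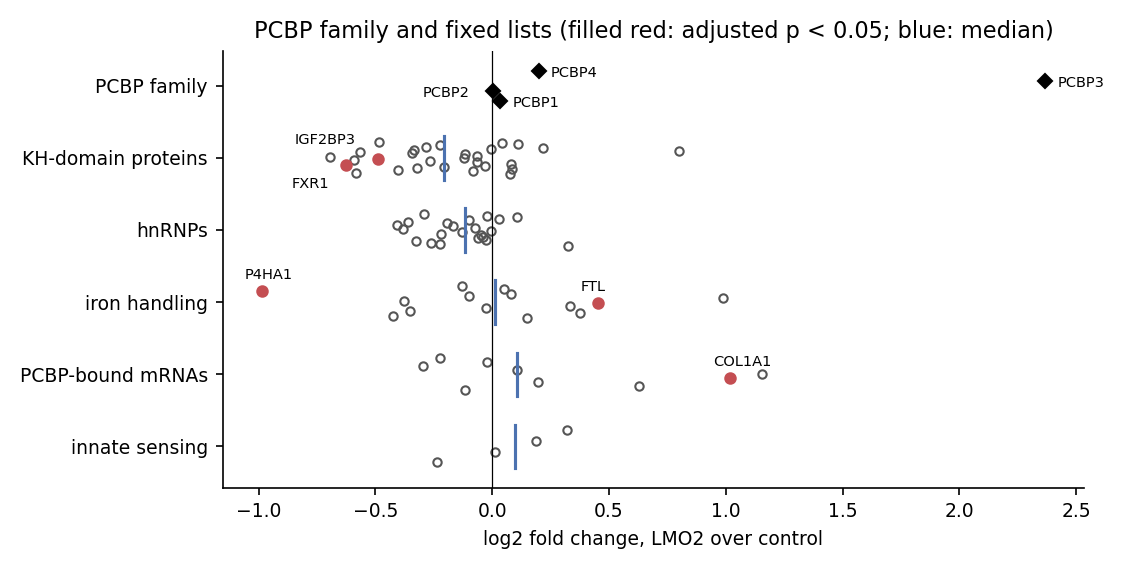
Log2 fold change (x axis, LMO2 over control) of the 4 PCBP genes (black) and of the tested genes of 5 lists, with the list median as a blue bar and genes at an edgeR adjusted p under 0.05 in red. PCBP3, at 2.37, lies beyond every gene of the lists, and 5 list genes are called.

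The genes whose pattern over the 6 libraries was most like that of PCBP3 were found by the root mean square difference of centred log2 CPM (with a prior count of 2, which narrows the changes of low genes), among 15161 genes with at least 3 counts in every library and a mean of at least 1 CPM. The 5 closest were the unnamed Entrez gene 105378278 (difference 0.228; mean 0.236 and 2.36 CPM in U87MG-control and U87MG-LMO2), LINC02881 (0.233), CCN4 (0.245), PLPPR4 (0.267) and MYL9 (0.269). CCN4, a secreted matricellular protein, had 7.81, 6.06 and 7.64 CPM in U87MG-control and 26.4, 23.0 and 39.3 CPM in U87MG-LMO2. PLPPR4, a membrane protein related to lipid phosphatases, had 3.47, 2.70 and 3.71 CPM in U87MG-control and 13.5, 14.5 and 12.6 CPM in U87MG-LMO2. MYL9, a light chain of myosin, had 1.30, 0.876 and 1.29 CPM in U87MG-control and 6.47, 5.86 and 11.2 CPM in U87MG-LMO2. Gene 105378278 and LINC02881 (0.454 and 2.39 CPM) passed the level minimum only through U87MG-LMO2, where they were high. This likeness is a description over 6 libraries in 2 groups, and none of the 5 neighbours in pattern lay beside PCBP3.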

How the data were processed

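For each library the authors deposited expected counts, which are estimated reads per gene that are not normalized, the transcript length and an FPKM value, scaled by the authors to length and library size. The submitters' processing notes name Bowtie2, BWA and GRCh38.p12; the counting program and versions are not given in the sources used here. The authors' deposited table of group mean FPKM was used to find damaged lines. It also holds their log2 ratios and probabilities, which were not used. For 131 genes the mean FPKM of the U87MG-LMO2 libraries did not match this table (tolerance 0.0051 FPKM), and these genes were left out.

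Expected counts were rounded and tested with edgeR 4.0.16 in R 4.3.3 (filterByExpr, TMM, glmQLFit, glmQLFTest, 2-sided), with Benjamini-Hochberg adjustment over 16092 genes and a threshold of 0.05. CPM were scaled by TMM-adjusted library sizes. Standard errors came from the F statistic. Lengths were compared with exact permutation tests in scipy 1.17.1. Symbols came from RefSeq by gene ID (89.6% matched), and gene neighbours from its GRCh38.p14 table. Sequences came from GENCODE v29 transcripts that match the RefSeq transcripts in the authors' tables (1, 7, 2 and 4 for PCBP1 to PCBP4), and promoter windows from RefSeq GRCh38.p14.

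Named were the members, other PCBP-named genes, LMO2, HNRNPK, called genes of the lists (or the 2 most abundant where edgeR called none), the nearest tested genes on either side, and the 5 genes most like PCBP3; overlapping neighbours lie outside this rule. The members and lists were chosen with earlier results of these data known. The other fits used upper-quartile normalization, DESeq2 1.42.0, no filter, at least 10 counts in every library, limma 3.58.1 on log2(FPKM + 1) and log2(FPKM + 0.1), a replicate block and leaving out each library. The GC-content correction (lowess, span 0.3) and the deposited length as a second measure were added after seeing the data. The edgeR script was tested on simulated data. An item of the blood marker list is not reported here.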

Additional observations from a re-analysis of the deposited data

How the results depend on the processing

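PCBP3 was higher in U87MG-LMO2 in every fit run, while PCBP1, PCBP2 and PCBP4 each changed sign in at least 1. PCBP3 had a log2 fold change of 2.05 with limma on log2(FPKM + 1), and its share of the family differed by 1.998 percentage points in CPM, where longer transcripts weigh more. After the GC-content correction, PCBP4 stood at -0.021, and the called genes of the hnRNP and iron lists became 1 and 0. DESeq2 called 691 genes lower, 2 hnRNP genes and 2 PCBP-bound mRNAs, and without a filter 2 PCBP-bound mRNAs were called. Limma on either FPKM scale called 1 KH-domain and 1 iron gene. With the replicate block, 387 genes were higher and 189 lower, and 1 KH-domain and 0 iron genes were called. No pairing by replicate number was seen (correlations of same-numbered deviations -0.12, -0.0034 and -0.041), but these values cannot exclude a weaker one. With the total of undamaged genes that have an FPKM, the implied PCBP2 length differed by 2.0 bases. The cause of these shifts was not tested.

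Leaving out each library in turn gave 102 to 1310 genes higher and 42 to 1100 lower, the highest of each without U87MG-LMO2 replicate 3. It gave 0 to 6 called KH-domain genes, 0 to 2 hnRNP genes, 0 to 4 iron genes, 1 to 2 PCBP-bound mRNAs and 0 innate sensing genes. When any 1 control library or U87MG-LMO2 replicate 1 was left out, no KH-domain or iron gene was called. PCBP1 ranged from -0.12 to 0.12, PCBP2 from -0.076 to 0.058, PCBP3 from 2.27 to 2.46 and PCBP4 from 0.14 to 0.27. The family log2 ratio ranged from -0.038 to 0.054 and the PCBP3 share difference from 2.46 to 2.55 points. Implied length differences ranged from -1.45 to 1.30 bases (PCBP1), 3.28 to 7.65 (PCBP2), -2.21 to 3.45 (PCBP3) and -3.84 to 24.1 (PCBP4).

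Genes near 0 beside the members changed sign, and none was called in any fit. On log2(FPKM + 1) and log2(FPKM + 0.1), MXD1 was -0.022 and -0.043, TARBP2 -0.040 and -0.041, and MAP3K12 -0.032 and -0.033. After the GC-content correction TARBP2 was -0.047 and MAP3K12 -0.11, and with the block MXD1 was -0.0052. Without each library in turn, MXD1 ranged from -0.075 to 0.15, PRR13 from -0.13 to 0.029, MAP3K12 from -0.060 to 0.11, PARP3 from -0.25 to 0.068 and GPR62 from -0.27 to 0.085.

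At 88 to 93 counts of PCBP3 per control library, counting error limits its control level, and PCBP3-AS1, with 3 to 8 counts, was left out by the filter.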
